A study of Mus musculus with 160 samples.

Results

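The stromal cells that hold much RNA of immediate early genes and those that hold little were set side by side within bone marrow stroma of old and of young mice. A score was made for each cell as the mean of log2(FPKM + 1) over 8 genes, Fos, Fosb, Jun, Junb, Egr1, Ier2, Zfp36 and Dusp1, where FPKM is the number of sequenced fragments scaled to transcript length and library size. Only cells in which 600 or more named genes stood at 1 FPKM or more were scored, which kept 125 of 160 cells, 58 of 78 old and 67 of 82 young. Within each age the scored cells were ranked and cut into 3 nearly equal sets. The top set is called the high cells here (19 old and 22 young) and the bottom set the low cells (19 old and 22 young), and the 20 old and 23 young cells between them belong to neither. The 82 cells compared are thus 41 high and 41 low.

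All cells came from C57BL/6J mice, old at 24 months or young at 9 weeks by the sample labels, while the protocol text gives 2 years and 10 weeks. They were sorted from marrow as CD45-Ter119-CD31-LepR+CD140a+ cells, a gate that keeps stromal cells bearing the leptin receptor and the PDGF receptor alpha and removes blood and endothelial cells. Single cells were captured and lysed on microfluidic chips (Fluidigm C1), and each cell is its own library. No allele, transgene or treatment is named for either age, and no label ties a cell to an animal or a chip. Each age therefore counts as 1 sample. The high and low cells are cells of that one sample, not replicates, so no p-value or standard error is given, and intervals of shares are exact (Clopper-Pearson) 95% binomial intervals that cover counting error only. The ages also differed in sex-linked RNA: Xist stood at 1 FPKM or more in 19 of 19 high and 15 of 19 low old cells and in no scored young cell, and Y-linked genes did so in 13 of 22 high and 11 of 22 low young cells and in no scored old cell, so age and sex cannot be told apart.

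Immediate early genes are transcribed within minutes of a signal, without new protein synthesis, because the factors that switch them on (SRF with its partners on the serum response element, CREB on the cAMP response element) are already bound or waiting in the resting cell. Growth factors, cytokines, calcium, mechanical strain and the handling of tissue are all known to induce them. Several of their products are transcription factors (the AP-1 proteins and Egr1), and others shut the response off by removing phosphate from MAP kinases (Dusp1) or by destroying AU-rich messenger RNA (Zfp36), and most of the transcripts are short-lived. In marrow stroma, AP-1 proteins are known for roles in osteoblast and matrix gene expression.

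In the ranking given below, H3f3b came first outside the score by the smaller of its differences in the 2 ages. The sequences just upstream of 5 score genes and of H3f3b are shown so that the 2 elements named above can be seen where they occur. They are the 250 bases before the annotated start, 5′ to 3′ in the direction of transcription, from RefSeq on GRCm38.p6, which is not the mm9 build of the expression table. Capitals mark TGACG, the core of the cAMP response element, searched on both strands so that its complement CGTCA counts, the full palindrome TGACGTCA, and the CArG box at the core of the serum response element. The windows are Fos (chr12:85473640-85473889, plus strand), Fosb (chr7:19310046-19310295, minus strand), Junb (chr8:84978749-84978998, minus strand), Dusp1 (chr17:26508473-26508722, minus strand), Zfp36 (chr7:28379229-28379478, minus strand) and H3f3b (chr11:116024505-116024754, minus strand).
Fos: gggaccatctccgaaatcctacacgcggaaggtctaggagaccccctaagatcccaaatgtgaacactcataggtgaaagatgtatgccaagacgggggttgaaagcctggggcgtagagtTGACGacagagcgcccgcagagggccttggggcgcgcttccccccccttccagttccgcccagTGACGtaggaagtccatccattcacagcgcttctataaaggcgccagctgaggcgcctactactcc
Fosb: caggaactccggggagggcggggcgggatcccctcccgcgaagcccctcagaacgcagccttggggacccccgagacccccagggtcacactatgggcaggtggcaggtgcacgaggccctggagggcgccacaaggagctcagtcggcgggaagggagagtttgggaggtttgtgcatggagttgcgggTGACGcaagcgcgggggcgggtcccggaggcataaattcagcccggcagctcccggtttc
Junb: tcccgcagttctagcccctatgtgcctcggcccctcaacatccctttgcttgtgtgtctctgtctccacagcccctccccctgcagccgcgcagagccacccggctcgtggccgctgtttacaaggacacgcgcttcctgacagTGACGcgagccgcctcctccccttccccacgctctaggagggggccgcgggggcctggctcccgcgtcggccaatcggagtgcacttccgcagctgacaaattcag
Dusp1: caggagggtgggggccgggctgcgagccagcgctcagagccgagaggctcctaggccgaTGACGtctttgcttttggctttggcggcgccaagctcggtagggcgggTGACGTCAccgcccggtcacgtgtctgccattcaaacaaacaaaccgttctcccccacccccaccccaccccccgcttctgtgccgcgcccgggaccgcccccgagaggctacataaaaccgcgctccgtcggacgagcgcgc
Zfp36: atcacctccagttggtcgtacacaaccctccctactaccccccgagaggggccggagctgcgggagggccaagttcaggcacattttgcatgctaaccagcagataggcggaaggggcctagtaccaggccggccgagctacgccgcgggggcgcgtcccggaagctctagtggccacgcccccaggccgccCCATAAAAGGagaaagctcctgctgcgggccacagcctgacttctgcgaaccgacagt
H3f3b: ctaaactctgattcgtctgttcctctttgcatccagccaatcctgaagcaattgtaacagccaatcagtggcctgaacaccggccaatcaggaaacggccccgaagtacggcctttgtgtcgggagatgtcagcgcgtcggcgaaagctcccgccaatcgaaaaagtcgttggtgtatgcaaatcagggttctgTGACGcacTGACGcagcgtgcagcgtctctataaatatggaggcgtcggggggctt

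Promoters were read for 6 of the 8 score genes, and none was read for Egr1 and Ier2. The reading by gene left out a chromosome that the shares over all promoters include. TGACG was found in 4 of these 6 promoters, against 17.8% of all 32851 promoters of that length and 28.8% of the 1595 promoters of genes measured here. Fos held it at -129 and -66 relative to the start, Fosb at -60 and Junb at -106. Dusp1 held it at -191 and inside the palindrome at -143, where matches on both strands overlap. The palindrome was present in 1.55% of all promoters. Zfp36 held a CArG box from -58 to -49, a motif found in 1.47% of all promoters, and the Jun window held none of these letters. H3f3b held TGACG at -56 and -48. These matches describe letters in a window and say nothing of binding in these cells. Bases outside the windows were not searched, so a CArG box or TGACG further upstream of any of these genes would be missed. A window without a match therefore does not show that the gene lacks the element.

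The score spread continuously, with no gap at either limit. In old cells the high set ran from 3.38 to 5.97 with a median of 4.07, and the low set from 0.00903 to 2.17 with a median of 1.32. In young cells the high set ran from 3.73 to 6.53 with a median of 4.80, and the low set from 0.0196 to 1.87 with a median of 1.13. The cells just outside the high sets scored 3.28 in old and 3.57 in young mice, and those just outside the low sets 2.31 in old and 1.98 in young mice. The sets therefore touch, and cells near a limit differ little from their neighbours across it. Medians over all scored cells were 2.85 in old and 2.78 in young mice.

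**Figure D1:**
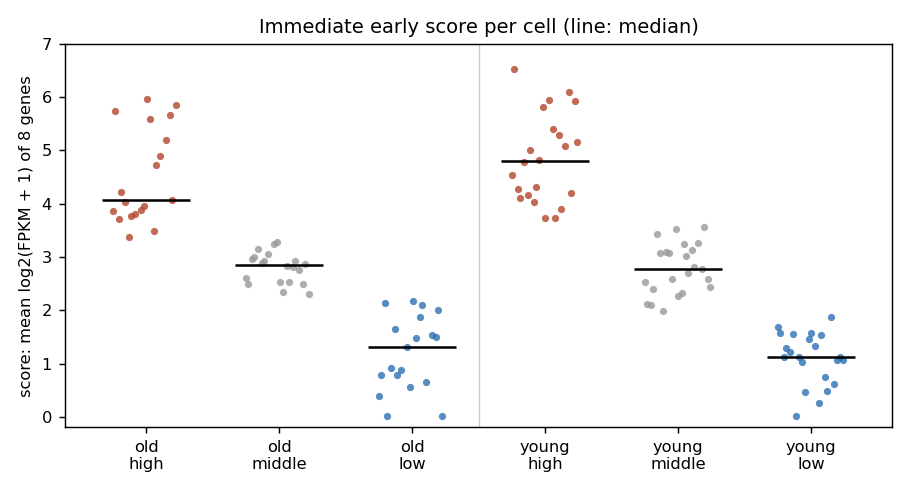
Score of each cell, the mean log2(FPKM + 1) of 8 immediate early genes, for the old high, middle and low cells and the young high, middle and low cells. Points are cells and lines are medians. The sets touch at their limits because the score itself separated them, and the medians of the high cells were 4.07 in old and 4.80 in young mice.

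The high cells also listed more genes in all, which bears on each comparison that follows. A gene is called listed in a cell where its FPKM was 1 or more. High cells listed a median of 1388 genes against 1219 in low cells of old mice, and 1291.5 against 1037 in young mice. Over all scored cells the Spearman correlation of the score with the number of genes listed was 0.29 in 58 old cells and 0.09 in 67 young cells. The FPKM summed over named genes had a median of 77342 in high and 71962 in low old cells, and of 78647 in high and 63486 in low young cells. A few cells held sums over 3 times the median of their age, namely 0 high and 3 low old cells and 1 high and 3 low young cells. The number of reads behind a cell is unknown, since the files give only FPKM. The share of these differences in each result was not tested. Values that take the number of genes into account are given beside some of the results only.

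The AP-1 genes of the score, whose products pair as Fos and Jun proteins on AP-1 sites, are given first. Because the score chose the cells, their levels are a description and no evidence of a difference. Fos, the founding member, ranged from 46.9 to 533 FPKM with a median of 251 in old high cells, and from 0 to 157 with a median of 12 in old low cells. In young cells Fos ranged from 73.1 to 1157 FPKM with a median of 351 in high cells, and from 0 to 76.4 with a median of 10.3 in low cells. Fos was listed in every high cell and in 11 of 19 old and 16 of 22 young low cells, so most low cells were not without it. In young mice the ranges of high and low cells overlapped only between 73.1 and 76.4 FPKM, and in old mice between 46.9 and 157 FPKM.

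Fosb, a close relative of Fos, was listed in few low cells. Its median was 13.6 FPKM in old high cells and 0 in old low cells, with listings in 15 of 19 high and 2 of 19 low cells. In young mice its median was 35.8 FPKM in high cells and 0 in low cells, with listings in 18 of 22 high and 2 of 22 low cells. One young high cell stood at 14403 FPKM and held 93.0% of all Fosb FPKM among the young cells compared, so no mean FPKM is given. Jun, the main partner of Fos, had a median of 44.2 FPKM in old high cells (range 0 to 337) and of 0.00454 in old low cells (range 0 to 90.7). In young mice Jun had a median of 50.2 FPKM in high cells (range 3.08 to 161) and of 0.966 in low cells (range 0 to 147). Junb, a Jun protein that competes with Jun, was patchier, with 12 of 19 old high cells and 1 of 19 old low cells listing it. In young mice 12 of 22 high cells and 2 of 22 low cells listed Junb, at medians of 1.79 and 0 FPKM.

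Egr1, a zinc finger transcription factor, was listed in all high cells and reached 1097 FPKM in old and 5108 FPKM in young high cells. Its median was 265 FPKM in old high against 3.61 in old low cells, and 154 FPKM in young high against 1.63 in young low cells. Single low cells still held 307 FPKM (old) and 644 FPKM (young), so the ranges overlapped widely in both ages.

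Dusp1 and Zfp36, which limit the response, are score genes too, so the choice of cells itself set them apart. Dusp1, the MAP kinase phosphatase, had a median of 65.5 FPKM in old high and 0.0147 in old low cells, and was listed in 18 of 19 high and 6 of 19 low cells. In young mice it had a median of 65.8 FPKM in high and 0 in low cells, was listed in 20 of 22 high and 2 of 22 low cells, and no young low cell exceeded 10.9 FPKM. Zfp36, which binds AU-rich messages and brings them to decay, had a median of 10.6 FPKM in old high and 0 in old low cells. In young mice its median was 31.9 FPKM in high and 0.0156 in low cells. Ier2, a nuclear protein of the early response, contributed little to the score: it was listed in 4 of 19 high and 2 of 19 low old cells and in 6 of 22 high and 1 of 22 low young cells. High cells listed a median of 6 of the 8 score genes and low cells a median of 2, in both ages.

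**Figure D2:**
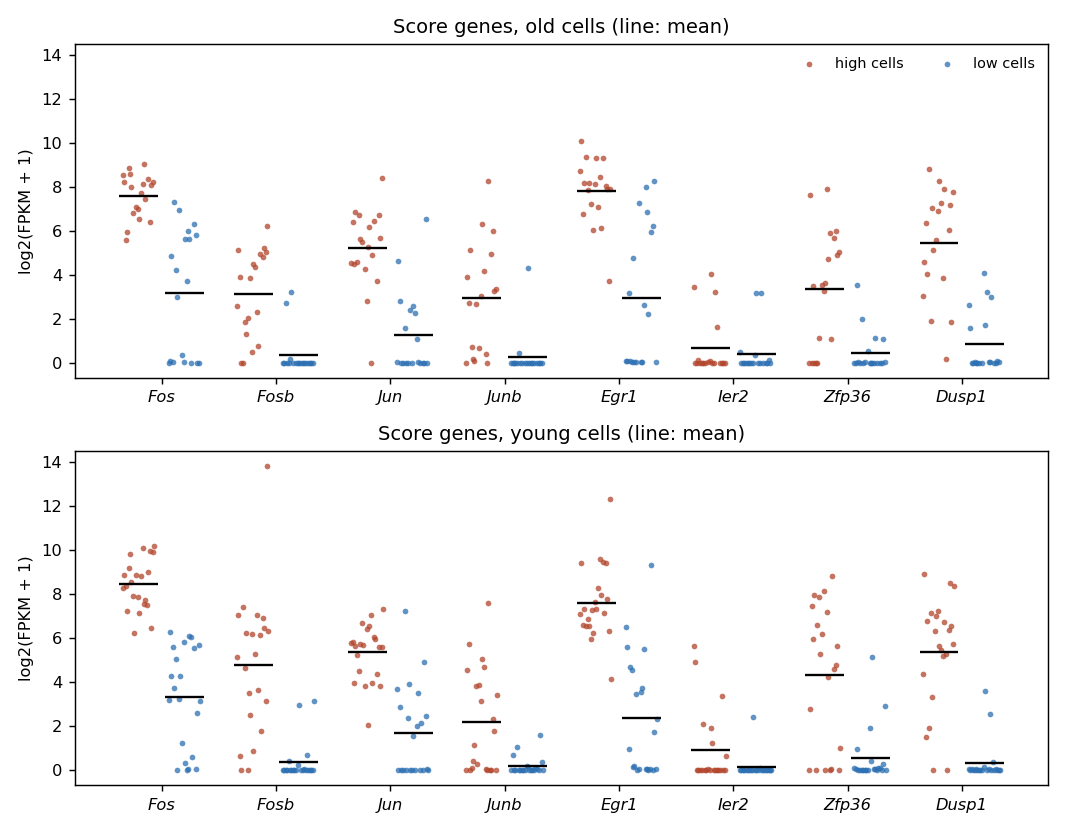
log2(FPKM + 1) of the 8 score genes in the high and low cells, old mice above and young mice below. Points are cells and lines are means. Fos and Egr1 are above 0 in every high cell, Ier2 lies at or near 0 in most cells of both kinds, and these genes chose the cells.

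To describe each score gene without its own part in the choice, the score was remade from the other 7 genes and the cells were cut again. The values are differences of mean log2(FPKM + 1), high minus low. In old mice they were 3.78 for Egr1, 3.20 for Jun, 3.18 for Fos, 2.54 for Junb, 2.53 for Dusp1, 2.36 for Zfp36 and 2.26 for Fosb, while Ier2 stood at -0.04. In young mice they were 4.41 for Dusp1, 4.22 for Egr1, 4.11 for Fosb, 3.81 for Fos, 3.42 for Jun, 2.73 for Zfp36, 1.64 for Junb and 0.70 for Ier2. With its own value left out, Fos had a median of 171 FPKM in old high and 17.5 in old low cells, and of 351 FPKM in young high and 25.4 in young low cells. All score genes but Ier2 were thus higher, in both ages, in cells chosen by the other genes.

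The genes did not all go together to the same degree. Across all scored cells, the 28 pairs of score genes had Spearman correlations from -0.13 to 0.58 with a median of 0.31 in 58 old cells. In 67 young cells they ran from -0.08 to 0.65 with a median of 0.30. The highest pair was Fos with Egr1 (0.58) in old cells and Fos with Fosb (0.65) in young cells, against 0.42 for Fos with Egr1 in young and 0.22 for Fos with Fosb in old cells. Cells of 1 age share their sort and chemistry, and a correlation across them is a description.

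Immediate early genes outside the score were then examined as a list of 40, none of which chose the cells. Old high cells listed a median of 8 of the 40 (range 3 to 13) against 5 (1 to 7) in old low cells, with 6 in the cells between. Young high cells listed a median of 10 (2 to 13) against 5 (2 to 11) in young low cells, with 7 in the cells between. Across all scored cells the number listed had a Spearman correlation with the score of 0.64 in 58 old and 0.51 in 67 young cells. By gene, 23 of the 40 were listed in more high than low old cells and 1 in more low cells, with 11 listed in no old cell compared. In young mice 27 were listed in more high cells and 0 in more low cells, with 10 listed in none. Over all genes listed in any cell, 54.7% of 9067 were listed in more high cells and 28.9% in more low cells of old mice, and 49.3% in more high and 33.7% in more low cells of 9046 in young mice. Restricting the cells to those with 1000 or more genes made the numbers of genes nearly equal, with medians of 1388 in high and 1356 in low old cells and of 1322.5 in high and 1389.5 in low young cells. There 22 of the 40 were listed in more high and 4 in more low old cells, and 23 in more high and 4 in more low young cells. Of all genes, 48.3% were listed in more high and 35.1% in more low old cells there, and 40.8% in more high and 41.7% in more low young cells.

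Among the transcription factors of this list, Nr4a1, an orphan nuclear receptor, was listed in 7 of 19 high and 1 of 19 low old cells and in 6 of 22 high and 1 of 22 low young cells. Klf2 was listed in 4 of 19 high and 0 of 19 low old cells, where a count of 0, read as at most 3 cells, allows a share of up to 15.8%, and in 6 of 22 high and 2 of 22 low young cells. Klf4, another Krüppel-like factor, was listed in 1 old high and 0 old low cells and in 8 young high and 2 young low cells. Fosl2, a further AP-1 protein, was listed in 6 high and 1 low old cells and in 3 high and 0 low young cells, where 0 of 22, read likewise, allows a share of up to 13.6%. Klf10 was alone in being listed in fewer high than low old cells (4 and 5), and it was in 9 of each in young mice. Jund, the Jun protein least tied to the early response, was in 6 high and 3 low old cells and in 8 high and 7 low young cells. These are small counts, and the intervals of the shares behind them are wide.

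Among the other members, Cyr61, a secreted matricellular protein, was listed in 11 of 19 old high cells (57.9%, interval 33.5 to 79.7%) and in 2 of 19 old low cells (10.5%, 1.3 to 33.1%). Its median there was 18.5 FPKM in high and 0 in low cells. In young mice Cyr61 was listed in 13 of 22 high and 10 of 22 low cells, so the wide gap of old cells was not repeated. Btg2, an antiproliferative protein, was listed in 7 of 19 high and 2 of 19 low old cells and in 8 of 22 high and 3 of 22 low young cells. Pim1, a kinase, was listed in 5 high and 1 low old cells and in 8 high and 1 low young cells. Zfp36l1, a relative of Zfp36 with the same kind of RNA binding, was common everywhere, with a median of 68.6 FPKM in old high and 26.6 in old low cells and of 90.7 in young high and 32.3 in young low cells. Its differences of mean log2(FPKM + 1) were 1.11 in old and 0.92 in young mice. In cells with 1000 or more genes they were 1.43 in old and -0.02 in young mice. Errfi1, which inhibits the EGF receptor, had medians of 37.4 FPKM in old high and 34.4 in old low cells, and of 27.7 in young high and 33.1 in young low cells.

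**Figure D3:**
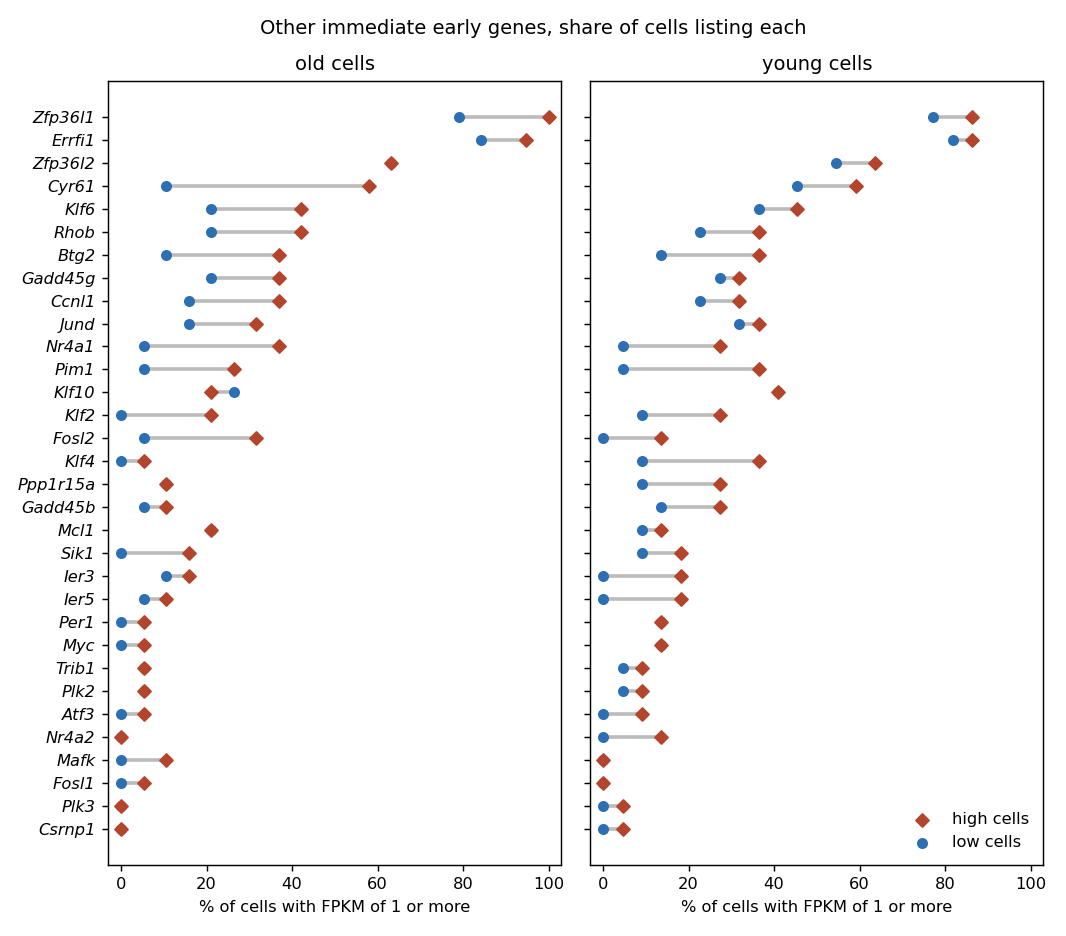
Share of cells at 1 FPKM or more for each immediate early gene outside the score that was listed in any cell compared, old mice on the left and young mice on the right. Diamonds are high cells, circles low cells, and 1 marker shows where both coincide. In old mice 23 genes have the diamond to the right and Klf10 alone has it to the left.

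The sizes of the differences were then set against those of all genes. A gene was called measured where it was listed in 25% or more of the high and low cells of an age together, and past the fold where mean log2(FPKM + 1) differed by 1 or more, that is 2-fold on that scale, which understates the change of low genes. In old mice 301 of 1420 measured genes outside the score were higher in high cells past the fold (21.2%) and 35 were lower (2.46%). In young mice 246 of 1357 were higher (18.1%) and 32 lower (2.36%). Against these shares, 2 of 8 measured list members were past the fold in old mice, Cyr61 at 3.05 and Zfp36l1 at 1.11. In young mice 1 of 11 was, Btg2 at 2.06. Cyr61 in old mice was listed in 11 high and 2 low cells, and Btg2 in young mice in 8 and 3. Both thus counted as measured mostly through their high cells, and passing the fold is no independent support. Some members listed in too few cells to be measured also differed by 1 or more, all higher in high cells. In old mice these were Btg2 at 1.75, Klf2 and Nr4a1, and in young mice Klf2, Klf4 and Pim1. With a filter of 10% of cells, 5 members in old and 4 in young mice were past the fold. Of all genes passing that filter, 436 of 4152 in old and 304 of 3391 in young mice were higher past the fold. The median difference of measured members was 0.56 in old and 0.84 in young mice, against 0.43 in old and 0.34 in young mice over all measured genes. All 8 measured members in old mice and 10 of 11 in young mice were above 0, as were 73.1% of all measured genes in old and 70.4% in young mice. None of the measured members was lower past the fold in either age. Relative to the median gene of the age, Cyr61 stood at 2.62 and Zfp36l1 at 0.68 in old mice, and Btg2 at 1.72 in young mice. The others measured in young mice were Jund, Klf6, Klf10, Gadd45g, Cyr61, Zfp36l1, Zfp36l2, Rhob, Ccnl1 and Errfi1, between -0.31 (Errfi1) and 0.95 (Klf6). In old mice Klf6, Gadd45g, Zfp36l2, Rhob, Ccnl1 and Errfi1 lay between 0.26 (Rhob) and 0.67 (Ccnl1).

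Most genes were higher in the high cells, which also listed more genes. The quartiles of the difference were -0.05 and 0.91 in old and -0.10 and 0.82 in young mice, beside the shares above 0 just given. Taken relative to the median gene of the age, 140 genes were higher and 126 lower past the fold in old mice, and 117 higher and 88 lower in young mice. With the number of genes listed fitted out of each gene, the counts were 133 higher and 85 lower in old and 142 higher and 69 lower in young mice. In cells with 1000 or more genes they were 250 higher and 120 lower in old and 207 higher and 180 lower in young mice. Rescaling every cell to the same summed FPKM gave 354 higher and 20 lower in old mice, and 263 and 35 in young mice. The excess of higher over lower genes thus remained after rescaling the sums. It was smaller with the number of genes fitted out and in cells with 1000 or more genes. Taking values relative to the median gene brings the counts closer by its construction.

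In both ages at once, 65 of 1066 genes measured in each were higher past the fold (6.1%) and 2 were lower (0.188%). These counts were 16 higher and 5 lower relative to the median gene, 15 and 1 with the number of genes fitted out, and 29 and 10 in cells with 1000 or more genes. Of the 1066, 22.9% were higher past the fold in old and 20.0% in young mice. The 65 were 26.6% of the old set and 30.5% of the young set, so most genes past the fold in one age were not so in the other. Across the 1066 genes the differences in old and young mice had a Pearson correlation of 0.04 and a Spearman correlation of 0.06. The Pearson value was 0.35 when cells with fewer genes were included and the sets were cut again, and 0.12 with no filter on genes. The ages share no cell.

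**Figure D4:**
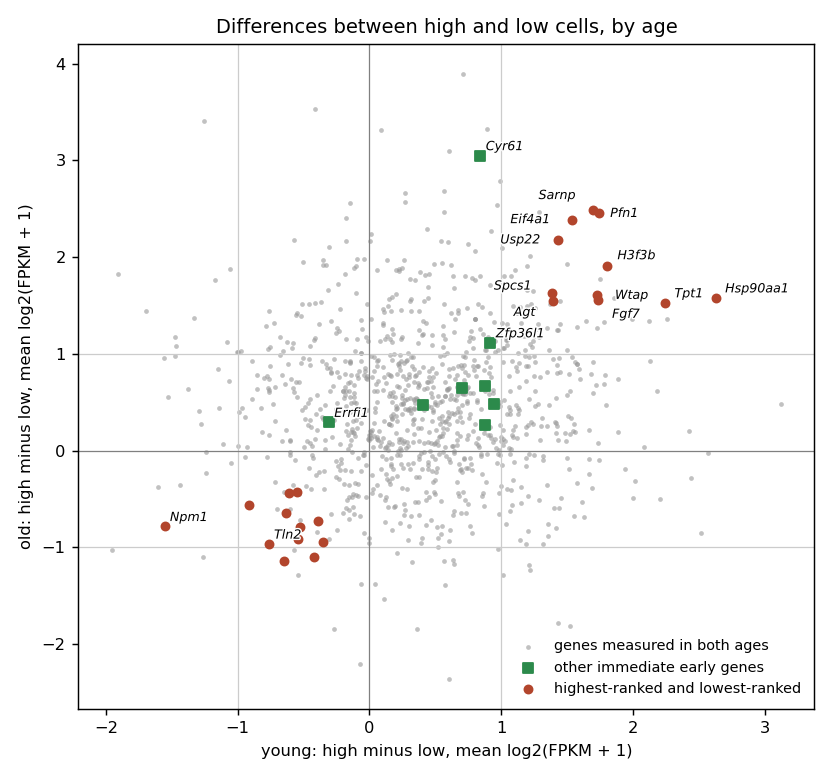
Difference of mean log2(FPKM + 1), high minus low, of each of 1066 genes, old mice on the vertical and young mice on the horizontal axis. Squares are other immediate early genes, large dots 11 of the 12 highest and the 12 lowest genes by the smaller of the 2 differences, and grey lines mark -1 and 1. For the cells shown the Pearson correlation is 0.04, and 65 genes lie in the upper right corner.

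Of the 12 genes highest in both ages, ranked by the smaller of the 2 differences, 11 are described here, and they were chosen from these values. They were H3f3b, Pfn1, Sarnp, Wtap, Hsp90aa1, Fgf7, Eif4a1, Tpt1, Usp22, Agt and Spcs1. H3f3b encodes the replacement histone H3.3, which is laid down in transcribed chromatin. It had a median of 27.2 FPKM in old high cells (range 0 to 654) and of 6.4 in old low cells (range 0 to 73.4). In young mice H3f3b had a median of 56 FPKM in high cells (0 to 192) and of 11.2 in low cells (0 to 268), and was listed in 20 of 22 high and 14 of 22 low cells. The ranges overlapped in both ages, and the differences were 1.90 in old and 1.80 in young mice.

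Pfn1 encodes profilin, which delivers actin monomers to growing filaments. It was listed in 14 of 19 high cells (73.7%, interval 48.8 to 90.9%) and 4 of 19 low cells (21.1%, 6.05 to 45.6%) of old mice, and in 10 of 22 high and 4 of 22 low cells of young mice. Sarnp, a nuclear protein that takes part in messenger RNA export, was listed in 12 of 19 high and 5 of 19 low old cells and in 11 of 22 high and 6 of 22 low young cells. Wtap belongs to the complex that methylates adenosine in messenger RNA. It had medians of 5.22 FPKM in old high and 0.802 in old low cells, and of 11.4 in young high and 1.35 in young low cells. Usp22, a deubiquitinase of the SAGA coactivator, was listed in 8 of 19 high and 2 of 19 low old cells and in 8 of 22 high and 3 of 22 low young cells. H3f3b, Pfn1, Sarnp, Wtap and Usp22 stayed past the fold in both ages relative to the median gene, with the number of genes fitted out, in cells with 1000 or more genes and without the cells of very high sums. Over these choices H3f3b ranged down to 1.05 in old and 1.01 in young mice, and Pfn1 down to 2.02 in old and 1.38 in young mice. With a pseudocount of 10 FPKM each of the 5 was short of the fold in young mice, as were Pfn1, Sarnp and Usp22 with the cells cut at the median score. Over all alternatives the lowest values were 0.93 for H3f3b, 0.83 for Pfn1, 0.78 for Sarnp and 0.65 for Usp22 in young mice, and 0.66 for Wtap in old mice. These genes were ranked on differences in the same cells, so staying past the fold is a description and no independent support. Pfn1 and Usp22 also passed the filter on cells mostly through their high cells.

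The other 6 described here were higher in both ages but fell short of the fold in at least 1 age under at least 1 of those choices. Eif4a1, the helicase of the cap-binding complex, had differences of 2.39 in old and 1.53 in young mice, and in cells with 1000 or more genes of 1.13 in old and 0.24 in young mice. Tpt1, a translationally controlled growth protein, had 1.53 in old and 2.24 in young mice, and 0.49 in old mice with the number of genes fitted out. Hsp90aa1, the inducible cytosolic HSP90, had 1.58 in old and 2.63 in young mice, and 1 young cell at 33548.5 FPKM held 93.5% of its FPKM among the young cells compared. Fgf7, a growth factor for epithelial cells, had 1.56 in old and 1.73 in young mice, and again 1 young cell held 96.4%. In cells with 1000 or more genes Fgf7 stood at 0.94 in old and 0.27 in young mice. Agt, the precursor of angiotensin, had 1.54 in old and 1.4 in young mice, but -0.11 in young cells with 1000 or more genes. Spcs1, a subunit of the signal peptidase, had 1.63 in old and 1.38 in young mice, and with the number of genes fitted out 0.78 in old and 0.87 in young mice. Of the 12, 9 had a promoter in the table, and TGACG was in 3 of them, H3f3b, Eif4a1 and Tpt1, against the 28.8% given above. Among the 12 lowest genes, named below, it was in 2 of 9. A gene counted where any of its promoters held the letters, while the 28.8% is a share of promoters.

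**Figure D5:**
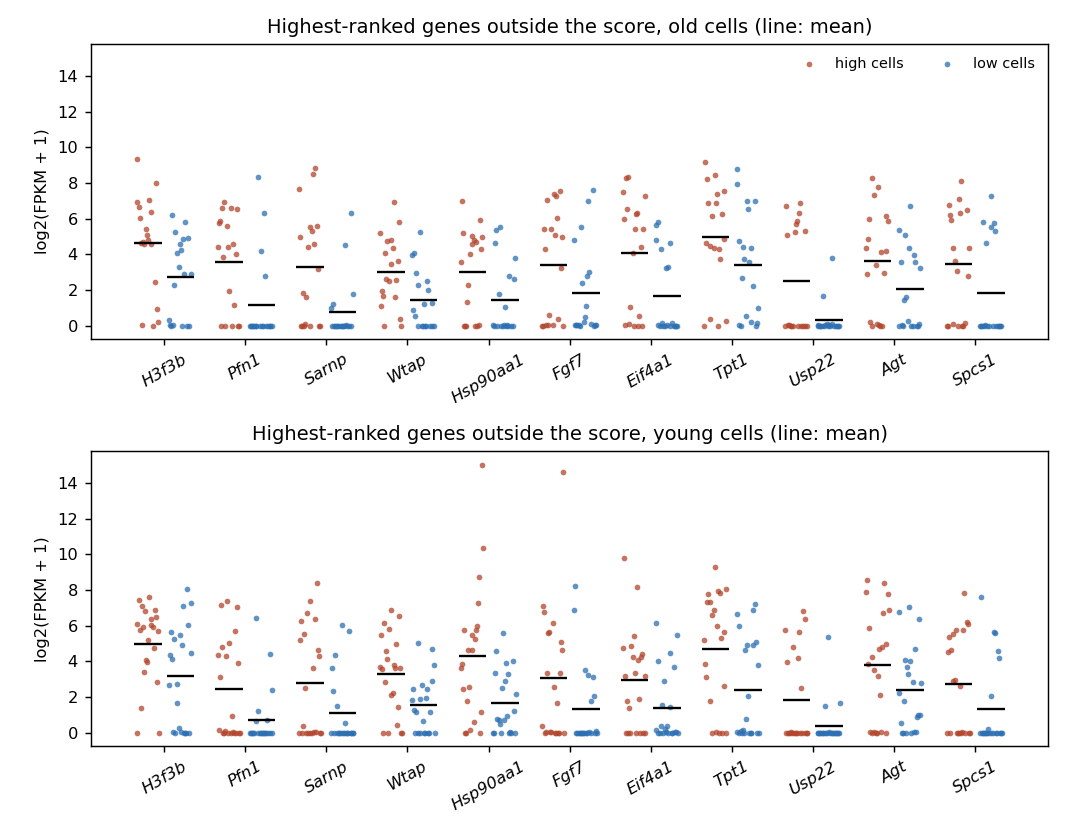
log2(FPKM + 1) of 11 genes outside the score that ranked highest in both ages, old mice above and young mice below, with high cells to the left of low cells for each gene. Points are cells and lines are means. Every gene has cells of both kinds at 0 and wide overlap, and for Pfn1 the old high cells list the gene in 14 of 19 and the low cells in 4 of 19.

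The 12 genes lowest in both ages were Npm1, Tln2, Pik3r1, Iqgap1, Ddx17, Fbln1, Vkorc1, Alg11, Slit3, Hsp90b1, Dpep1 and Islr, and none of them was past the fold in both. Npm1, the nucleolar protein nucleophosmin, was listed in 8 of 19 high and 9 of 19 low old cells and in 7 of 22 high and 11 of 22 low young cells, with differences of -0.78 in old and -1.55 in young mice. Pik3r1, the regulatory subunit of PI 3-kinase, had -1.14 in old and -0.65 in young mice. Hsp90b1, the HSP90 of the endoplasmic reticulum, had -1.10 in old and -0.42 in young mice. Tln2, Iqgap1 and Ddx17 had -0.97, -0.64 and -0.56 in old mice and -0.77, -0.63 and -0.91 in young mice. In cells with 1000 or more genes Hsp90b1 and Dpep1 stood at 0.08 and 0.39 in young mice, and Slit3 at 0.19 in old mice. The other 9 were below 0 in both ages there and relative to the median gene. They also were with the number of genes fitted out and without the cells of very high sums. Over all alternatives several of these 9 changed sign in at least 1 age, Npm1 up to 0.21 in old mice. The 2 rows lower past the fold in both ages were a joint row of the myosin light chain genes Myl6 and Myl6b, and Rn45s, the ribosomal RNA precursor. They fall outside the naming rule and are named after their values were seen. Rn45s had a median of 399.7 FPKM in old high and 497 in old low cells, and of 314 in young high and 549.6 in young low cells, with differences of -1.10 in old and -1.26 in young mice. In cells with 1000 or more genes these were 0.12 in old and -0.37 in young mice.

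Pathways downstream of or beside the early response were described by lists, each read against the shares past the fold given above. Heat shock chaperones were 1 of 5 measured higher past the fold in old mice, with a median difference of 0.68, and 4 of 4 in young mice, with 2.57. Hsp90ab1, the constitutive cytosolic HSP90, showed the contrast most, at a median of 1.91 FPKM in old high and 28.8 in old low cells and of 44 in young high and 7.51 in young low cells. Its differences were -0.85 in old and 2.51 in young mice, and 1 young cell held 86.3% of its FPKM among the young cells compared. Without the cells of very high sums they were -0.63 in old and 2.33 in young mice, and in cells with 1000 or more genes -1.02 in old and 1.39 in young mice. The other 3 in young mice were Hsp90aa1, Hspa8 at 1.78 and a joint row of Dnaja1 and Mir207 at 3.12. In old mice Hspa8 stood at 0.68 and the joint row at 0.48. Whether the ages differ was not tested, since each is 1 sample.

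Feedback regulators of NF-kB and cytokine signalling were past the fold in 1 of 4 measured members in old mice and 2 of 2 in young mice. Nfkbiz, an atypical nuclear inhibitor of NF-kB, was listed in 9 of 19 high and 2 of 19 low old cells and in 9 of 22 high and 2 of 22 low young cells, with differences of 1.65 in old and 1.24 in young mice. In cells with 1000 or more genes these were 1.18 in old and 0.45 in young mice. Nfkbiz counted as measured mostly through its high cells in both ages. Nfkbia, the classical inhibitor, had 0.03 in old and 1.06 in young mice. Among feedback inhibitors of MAP kinase signalling other than Dusp1, 1 of 3 was past the fold in old mice, Spry1 at 1.28, and 0 of 3 in young mice. Of chemokines and cytokines, 2 of 3 were past the fold in each age. Il1rn, the interleukin-1 receptor antagonist, was at 1.03 in old and 1.36 in young mice, and in cells with 1000 or more genes at 0.54 in old and 0.62 in young mice. Cxcl14, a chemokine, was at 1.88 in old and 0.22 in young mice, and Csf1, the macrophage growth factor, at 0.52 in old and 1.02 in young mice.

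Genes of the serum response factor and actin list, a further branch driven from the serum response element, were 3 of 11 higher past the fold in old mice (Actg1 at 1.19, Ctgf at 1.46 and Vim at 1.51). In young mice 1 of 9 was higher, Vim at 1.23, and 1 lower, Cnn2 at -1.24. Actb, the main cytoplasmic actin, was listed in every cell compared. Its FPKM had a median of 589 in old high and 399 in old low cells, and of 310.4 in young high and 297 in young low cells. Unfolded protein response genes had medians of 0.09 in old and -0.38 in young mice, with 2 higher and 1 lower of 12 past the fold in old and 0 higher and 1 lower of 8 in young mice. Glucocorticoid and C/EBP genes had medians of -0.00336 in old and -0.04 in young mice. In that list Tsc22d1, a glucocorticoid-induced leucine zipper relative, stood at -1.84 in old and 0.36 in young mice.

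Among respiratory chain and ATP synthase subunits, 13 of 39 measured in old mice were higher past the fold and 0 lower, with a median of 0.69, and in young mice 5 were higher and 1 lower of 39, with a median of 0.20. Uqcrb, a subunit of complex III, was listed in 16 of 19 high and 6 of 19 low old cells, at medians of 184 and 0 FPKM, and in 11 of 22 high and 10 of 22 low young cells. In cells with 1000 or more genes its differences were 2.66 in old and -0.97 in young mice. Cox6c, a subunit of cytochrome oxidase, had 3.41 in old and -1.25 in young mice. Translation factors had medians of 0.19 in old and 0.21 in young mice, with 4 of 17 in old and 4 of 14 in young mice higher past the fold and none lower. Of measured p53 targets 0 of 2 were past the fold in old and 1 of 4 in young mice, the 1 being Btg2. In old mice Btg2 was listed in too few cells to be measured.

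Class I presentation genes had medians of 0.77 in old and 0.57 in young mice, with 2 of 7 in old and 3 of 7 in young mice past the fold, and interferon response genes medians of 0.43 in old and 0.67 in young mice, with 1 of 5 in old and 2 of 4 in young mice. The joint row of F830016B08Rik, Gm4951 and Iigp1, which holds interferon-induced GTPases whose reads cannot be told apart in the file, had medians of 58.1 FPKM in old high and 11.6 in old low cells and of 80.7 in young high and 13.1 in young low cells. Its differences were 1.58 in old and 1.85 in young mice, and in cells with 1000 or more genes 0.86 in old and 1.11 in young mice.

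Markers of the sorted population were present in high and in low cells. Lepr, the leptin receptor, was listed in 19 of 19 high and 18 of 19 low old cells and in all 22 high and all 22 low young cells. Cxcl12, the chemokine that holds blood stem cells in marrow, had medians of 888 FPKM in old high and 824 in old low cells and of 874 in young high and 863 in young low cells. Pdgfra, the gene of CD140a, was listed in only 8 of 19 high and 7 of 19 low old cells and in 7 of 22 high and 8 of 22 low young cells, although every cell passed a gate on the protein. Adipoq, adiponectin, had medians of 164 FPKM in old high and 233 in old low cells and of 362 in young high and 207 in young low cells. Its differences of mean log2(FPKM + 1) were 0.66 in old mice, against the order of the medians, and 0.89 in young mice. In cells with 1000 or more genes they were 0.17 in old and -0.49 in young mice. Kitl, stem cell factor, was at 54.1 FPKM in old high and 88.0 in old low cells, and at 61.5 in young high and 66.8 in young low cells. Its differences were -1.38 in old and 0.04 in young mice, and with all cells included the old value was 0.31.

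Niche factors had medians of 0.26 in old and 0.31 in young mice. In old mice 4 of 12 were higher past the fold (Igf1 at 1.11, Bmp6 at 1.68, Gas6 at 1.57 and Ctgf) and 1 lower (Kitl), and in young mice 2 of 10 were higher (Spp1 at 1.01 and Jag1 at 1.29). Stromal transcription factors had medians of 0.43 in old and 0.21 in young mice, with 4 of 13 higher and 1 lower in old mice and 1 of 13 higher in young mice. Ebf3 stood at 1.51 in old and -0.02 in young mice, and Ebf1 at -0.39 in old and 1.68 in young mice. Collagens and other matrix genes had medians of -0.25 in old and 0.43 in young mice, with 3 higher and 1 lower of 22 in old mice and 5 higher of 19 in young mice. Bgn, biglycan, was past the fold in both, with medians of 80.6 FPKM in old high and 48.2 in old low cells and of 86.8 in young high and 50.1 in young low cells, and differences of 1.27 in old and 1.35 in young mice. When the cells were cut at the median score instead, the old value of Bgn was -0.13, and in cells with 1000 or more genes it was 0.76 in old and 0.38 in young mice. Dcn, decorin, was at -1.24 in old and 1.22 in young mice. Adipogenic genes had medians of 0.08 in old and 0.89 in young mice with 1 of 4 in old and 1 of 3 in young mice past the fold. Osteogenic genes had 0.26 in old and 0.09 in young mice, with 0 of 6 in old and 2 of 5 in young mice.

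Most genes of other cell types were listed in few or no cells. Of what the gate removes, Ptprc for CD45 and Pecam1 for CD31 were listed in no cell compared. No cell listed 3 or more genes of the hematopoietic, erythroid, megakaryocyte, endothelial, pericyte, Schwann cell or chondrogenic lists. Within the Schwann cell list, S100b was listed in 12 of 19 high and 5 of 19 low old cells, a difference of 1.92 that was past the fold, and in 7 of 22 high and 5 of 22 low young cells, at 0.49, and Ncam1 in 9 high and 5 low old cells and in 7 high and 4 low young cells. Of 21 hematopoietic rows, Fcer1g was in 4 high and 1 low old cells and in 1 high and 1 low young cell, and Cd68 in 1 high and 0 low old and 3 high and 0 low young cells.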

How the data were processed

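RNA was measured in 160 single cells, and the authors deposited 1 table of FPKM for all of them, with 31199 rows of which 7751 carry no gene name. FPKM came from Cufflinks 2.1.1 on the mm9 build, per the submitters' processing notes. An aligner and an annotation are named nowhere among the sources used here. FPKM does not show how many reads lie behind a value, so the depth per cell is unknown. Spike RNAs added per the labels' protocols were not used here, and no doublet caller was run, because wells without exactly 1 cell were set aside by microscopy per the same protocols.

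Rows sharing a name were summed, which left 22866 names, 319 of them joint rows of several symbols. Differences are of mean log2(FPKM + 1), with a pseudocount of 1 FPKM, high minus low cells within an age. Genes listed at 1 FPKM in 25% or more of the high and low cells of an age together were measured, and a difference of 1 or more, or -1 or less, was past the fold. The filter pools both kinds of cells, so a gene can pass it mostly through its high cells. The design gives no test, since each age is 1 sample. On simulated data, young cells drawn at random into both sides, the direction of known changes was recovered. That run checks the arithmetic only, since its sides were not cut by the score and no gap in genes listed was built in. Named genes were the 8 score genes, the measured members of the list of other immediate early genes, 5 identity genes and the members of highest and lowest mean difference of each further list. They also included the 12 highest and 12 lowest by the smaller of the 2 ages' differences, limited to rows of 1 symbol with difference and share of the same sign in both ages and without predicted, ribosomal protein, small RNA and mitochondrial genes. Other members of lists that passed the fold, or that answer for another cell type, are named after their values were seen, and 1 gene of the 12 highest is not reported here. The rule for the cells, the gene lists and the settings were chosen with earlier results of these data known. Python 3.11.15, pandas 2.3.3, NumPy 2.4.6, SciPy 1.17.1 and matplotlib 3.10.9 were used. Promoters came from RefSeq on GRCm38.p6 and were matched by symbol.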

Additional observations from a re-analysis of the deposited data

Results flagged for a closer look

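Rows of the table that carry no gene name took a large part of the summed FPKM and enter none of the comparisons. Their median share was 43.3% in old high cells and 46% in old low cells, and 43.1% in young high cells and 49.1% in young low cells. They drew attention because a signal of this size lies outside the named genes. No control cells exist to set them against, and what these rows hold was not analysed here.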

How the results depend on the processing

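The table gives FPKM alone, each age is 1 sample, and the high cells listed more genes than the low cells, so counts of genes past the fold depended on how the cells were scaled and cut. No paired analysis was possible because the replicate numbers only name cells and no result comes from a test. The alternative relative to the median gene, and all alternatives to the count of other immediate early genes by listing, were added after seeing the data.

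Counts are given as higher and lower past the fold in old, then in young, then in both ages. With the settings reported these were 301 and 35, 246 and 32, and 65 and 2. A pseudocount of 0.1 FPKM gave 578 and 92, 463 and 93, and 179 and 4, while one of 10 FPKM gave 50 and 10, 43 and 4, and 2 and 1. Cutting the cells at the median score gave 148 and 22 in old, 88 higher in young, and 13 and 1 in both. The highest and lowest 25% of cells gave 58 lower in old, 72 lower in young and 105 higher in both. All cells gave 496 and 3, 403 and 10, and 205 higher in both. Cells with 1000 or more genes gave 120 lower in old, 180 lower in young, and 29 and 10 in both. Residuals on the number of genes gave 133 and 85, 142 and 69, and 15 and 1. Differences relative to the median gene gave 140 and 126, 117 and 88, and 16 and 5. Rescaling every cell to the same summed FPKM gave 354 and 20, 263 and 35, and 85 and 0. Leaving out cells of high sums gave 54 lower in old and 1 lower in both. A filter of 10% of cells gave 56 lower in old and 50 in young, and no filter 58 and 52. Of the 65 genes higher in both ages, 13 were kept in cells with 1000 or more genes, 13 with residuals, 16 relative to the median gene, 11 with the cut at the median score and 1 at a pseudocount of 10 FPKM. The Pearson correlation of the ages across genes, 0.04 as reported, ran from 0.02 with residuals to 0.35 in all cells.

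Other immediate early genes past the fold, 2 in old and 1 in young mice, became 6 and 6 at a pseudocount of 0.1 FPKM, 5 and 4 with the 10% filter or none, 4 and 5 in all cells, 5 and 6 in the highest and lowest 25% of cells and 5 and 6 after rescaling. They were 1 and 2 with the cut at the median, 1 in old at a pseudocount of 10 FPKM, with residuals and relative to the median gene, 5 in young cells with 1000 or more genes and 3 in young without cells of high sums. The numbers listed in more low cells, 1 in old and 0 in young mice, became 4 and 4 in cells with 1000 or more genes, 4 and 1 with the cut at the median, 2 and 1 without cells of high sums, 3 and 2 when listed at 10 FPKM, 2 in old in the highest and lowest 25% and 0 in old in all cells. The numbers listed in more high cells stayed within 1.5 times of their values under every alternative run. Of 1752 values of named genes under an alternative, 131 had the other sign, 126 of them of differences short of the fold as reported. The 5 of differences past the fold were Agt in young mice (-0.11), and Prrx1 (0.13) and Rn45s (0.12) in old mice, in cells with 1000 or more genes, Kitl in old mice (0.31) in all cells, and Bgn in old mice (-0.13) with the cut at the median. The cause was not tested.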
